A study of Mus musculus with 4 samples.

Results

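The regions described here were 261 stretches of the mouse genome (build mm9) that gave a dense cluster of small RNA alignments both in extracellular vesicles (EVs) and in cells. They were taken from cluster tables of 4 libraries of small RNA, 1 library per group. A cluster of the 4T1 EV or the 4TO7 EV library was kept where it overlapped a cluster of either cell library by 1 nt or more, and overlapping clusters were merged into 1 region. Merging all clusters of the 4 libraries gave 2454 regions, of which 261 met this rule, 545 were listed in EVs alone and 1648 in cells alone. The members were thus selected on a listed total of 1300 alignments or more in EVs and in cells. Because the rule used the presence of a cluster in EVs and in cells, the EV/cell values are given as a description with no test.

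The groups were 4T1 cells, 4TO7 cells and the EVs released by each line. Both are labelled as breast cancer cell lines. They were grown in DMEM with 10% fetal bovine serum free of EVs, and no gene had been altered and no drug given per the labels. EVs were collected by differential centrifugation that included ultracentrifugation. RNA of all 4 samples was extracted with Trizol, depleted of ribosomal RNA, cut from a denaturing gel at miRNA size and made into libraries with a NEBNext small RNA kit. With 1 library per group, the spread between cultures or EV preparations could not be measured, and the intervals given cover counting error only.

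EVs are membrane particles that cells shed and that carry short RNA. Fragments of larger structured RNAs are common in such material: small nuclear RNAs such as U2, which in the nucleus pairs with the branch point of introns within the spliceosome, and ribosomal RNA, the catalytic core of the ribosome. MicroRNAs are short guides that direct Argonaute proteins to messenger RNAs, and mir-21 is abundant in many tumour cells. Adapter ligation keeps the strand of the RNA, so a cluster's forward and reverse counts tell which strand of the genome the sequenced RNA matched. A small RNA from a gene with many copies can align to several of them, and then several regions hold the same reads. At most 6 places were reported per read here, so not every copy need hold them.

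The named RNAs on which the levels turned are shown first. The U2 snRNA sequence is the transcript of Rnu2-10 in the GENCODE M21 annotation of GRCm38, on the forward strand of chromosome 11, shown because U2-labelled regions had the highest EV/cell ratios. Capitals mark bases 91 to 165, the place that the EV cluster at chr11:101466254-101466329 took within the 190-nt interval the authors noted for it in mm9. Whether the mm9 copy has the same sequence as this transcript was not tested.
Rnu2-10: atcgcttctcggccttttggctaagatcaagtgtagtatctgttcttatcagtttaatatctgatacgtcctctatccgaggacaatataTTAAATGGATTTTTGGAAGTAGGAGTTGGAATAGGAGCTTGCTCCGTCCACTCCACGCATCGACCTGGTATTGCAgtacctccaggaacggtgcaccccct
The mature miRNAs of mir-21, the only miRNA named among the labels of these regions, are from RefSeq (GRCm38.p6), with the seed (bases 2 to 8) in capitals.
mmu-miR-21a-5p: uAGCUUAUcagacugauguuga
mmu-miR-21a-3p: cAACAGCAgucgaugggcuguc
No mm9 genome was used here, so no sequence is shown for the other regions.

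The libraries held 7625978 (4T1 EV), 5171514 (4TO7 EV), 13505699 (4T1 cells) and 11274041 (4TO7 cells) genome-aligned reads, or 72.7 to 86.4% of the reads processed. A read was reported at up to 6 places, which gave 4.17 to 5.17 alignments per aligned read. Levels are therefore alignments in a region as a percentage of genome-aligned reads, and they do not add up to 100% over regions. No cluster with a total under 1300 was listed, which equals 0.0170% of aligned reads in 4T1 EVs, 0.0252% in 4TO7 EVs, 0.00963% in 4T1 cells and 0.0116% in cells of 4TO7. A region with no value had no listed cluster in that library. All levels are shares of a library, so a region with a large share lowers the shares of the others, and amounts of RNA per cell or per vesicle were not measured.

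Vesicle clusters met the rule at nearly the same share in both lines: 265 of 684 clusters (38.7%) in 4T1 EVs and 178 of 465 (38.3%) in 4TO7 EVs. From the side of the cells, 282 of 1877 clusters (15.0%) in 4T1 and 240 of 1171 (20.5%) in 4TO7 lay in these regions. They held 45.5% and 49.3% of all alignments listed in the 4T1 and 4TO7 EV tables, and 59.8% and 68.4% of those listed in the 4T1 and 4TO7 cell tables. The smallest overlap inside the rule was 1 nt in 4T1 and 5 nt in 4TO7, and outside it 16 and 18 EV clusters ended within 100 nt of a cell cluster, the nearest of them directly beside it. Of the 261 regions, 107 were listed in all 4 libraries, 81 in 4T1 EVs and both cell libraries, and 37 in both EV libraries and 4T1 cells. The remaining 36 combined 1 EV library with 1 or both cell libraries in another way: 15 were listed in 4T1 EVs and 4T1 cells, 12 in 4TO7 EVs and 4T1 cells, 5 in 4TO7 EVs and both cell libraries, 3 in 4TO7 EVs and 4TO7 cells, and 1 in 4T1 EVs and 4TO7 cells.

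Levels in EVs and in cells of the same line differed widely, in both directions. In 4T1, 240 regions were listed in EVs and cells, and 74 were higher in EVs with an interval wholly beyond 2-fold (30.8% of those compared), 98 were lower (40.8%) and 68 were neither. The log2 EV/cell ratio had a median of -0.59 and ran from -7.52 to 11.44. In 4TO7, 115 regions could be compared, of which 42 were higher in EVs (36.5%), 49 lower (42.6%) and 24 neither, with a median log2 ratio of -0.18 and a range from -7.22 to 10.50. More than 100-fold differences were found in 15 regions higher and 6 lower in 4T1, and in 7 higher and 3 lower in 4TO7. The 4 U2 snRNA regions, with near-equal totals, were among those more than 100-fold higher in each line. All of these are counts of regions, some of which may hold the same reads, and not of separate RNAs. These percentages are also the background, since the rule used this contrast.

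**Figure D1:**
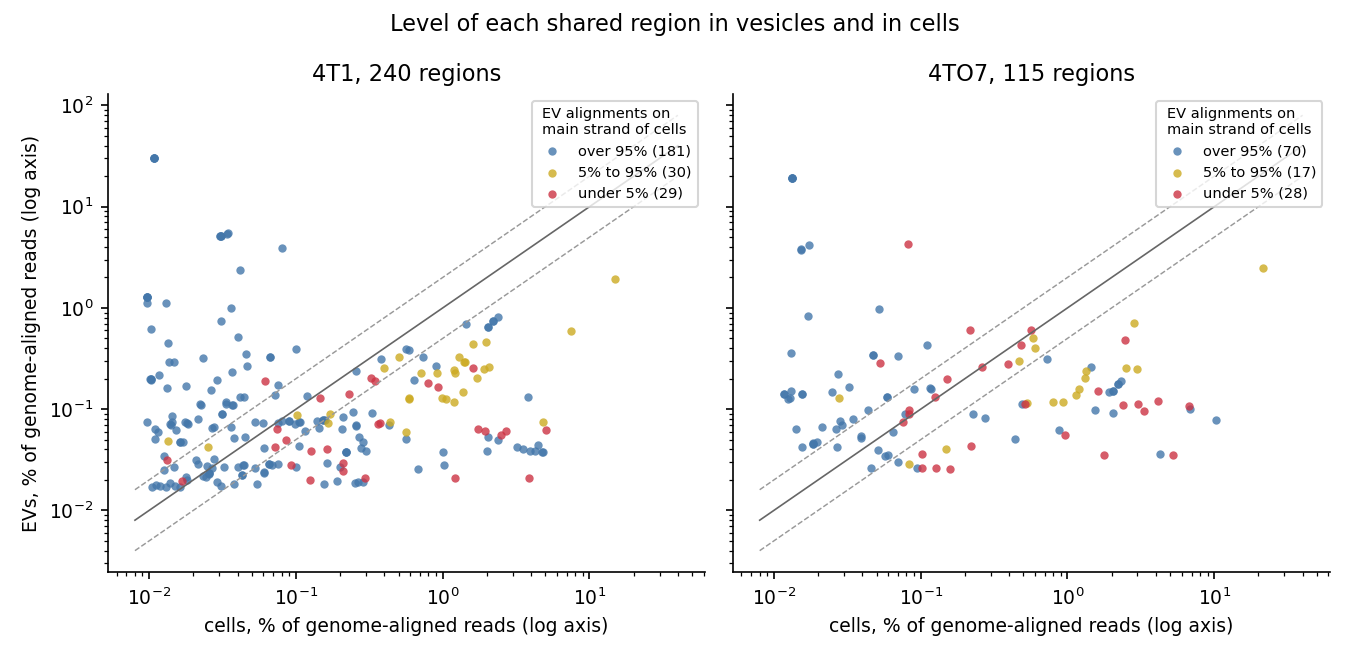
Level of each region in EVs (vertical, log axis) against cells of the same line (horizontal, log axis), as percent of genome-aligned reads, for 240 regions in 4T1 and 115 in 4TO7; each point is 1 region, the solid line marks equal levels and the dashed lines 2-fold. Colours give the share of EV alignments on the strand that held most cell alignments: over 95% (blue), 5% to 95% (yellow) and under 5% (red).

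The points far above the line of equal levels were narrow clusters that took up much of the EV libraries and almost nothing of the cell libraries. The highest were 4 regions of chromosome 11 labelled U2 snRNA. The first, at chr11:101466254-101466329, held 30.0% of the genome-aligned reads in 4T1 EVs, 19.3% in 4TO7 EVs, 0.0108% in 4T1 cells and 0.0134% in cells of 4TO7. It was 2769-fold higher (95% interval 2630.4 to 2916) in 4T1 EVs than in 4T1 cells and 1442-fold higher (95% interval 1371 to 1518) in 4TO7 EVs than in 4TO7 cells. Both EV libraries were thus far above both cell libraries. The other U2 regions, chr11:101488770-101488845, chr11:101503152-101503227 and chr11:101519642-101519717, had log2 ratios of 11.43 to 11.44 in 4T1 and 10.49 to 10.50 in 4TO7, with totals within 5% of the first in every library. The 4 regions may hold the same reads and were not taken as 4 separate observations. In each of them the EV cluster covered 75 nt in 4T1 and 50 nt in 4TO7, the cell cluster covered 25 nt, and over 99% of the alignments lay on the forward strand in every library.

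A second group of high regions, 27 to 35 nt wide, held between 3.77 and 5.46% of the reads in each EV library. They carried the labels Rab23, a small GTPase, Brms1l, a part of a histone deacetylase complex, Rdx, a protein that links actin to the membrane, and a mouse B1 repeat, a short interspersed element. The Brms1l, Rdx and Rab23 labels name genes on the same chromosome as the region. The totals of these labelled regions were close to each other in 4T1 EVs, at 390597 (Rab23), 395879 (B1), 408065 (Rdx) and 416049 (Brms1l) alignments. The regions may in part hold the same reads and were not taken as separate observations. Whether the RNA came from the named genes was not tested. The Rdx region (chr9:51856813-51856848) held 5.35% of the genome-aligned reads in 4T1 EVs, 4.14% in 4TO7 EVs, 0.0339% in 4T1 cells and 0.0173% in cells of 4TO7, and was 158-fold higher (95% interval 153 to 162) in 4T1 EVs and 239-fold higher (95% interval 228 to 249.8) in 4TO7 EVs. The B1-labelled region (chr7:86688715-86688745) held 5.19% of the genome-aligned reads in 4T1 EVs, 3.79% in 4TO7 EVs, 0.0309% in 4T1 cells and 0.0153% in cells of 4TO7, with log2 ratios of 7.39 and 7.96. In both regions each EV library was above each cell library by more than 100-fold.

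The Rab23-labelled region (chr1:33776751-33776780) held 5.12% in 4T1 EVs, 3.79% in 4TO7 EVs and 0.0306% in 4T1 cells, and was not listed in 4TO7 cells; its log2 ratio in 4T1 was 7.39. An unlabelled region on the same chromosome, chr1:37921910-37921940, matched it within 5% in each library, and chr13:72097073-72097100 on chromosome 13 matched the B1-labelled region in the same way. All of these lay over 99% on the reverse strand in EVs. The Brms1l region (chr12:56937405-56937438) held 5.46% of the genome-aligned reads in 4T1 EVs, 4.30% in 4TO7 EVs, 0.0347% in 4T1 cells and 0.0826% in cells of 4TO7. Its EV reads lay on the reverse strand in both lines, as did those of 4T1 cells, but 78.4% of the alignments of 4TO7 cells were forward. Its log2 ratio was 7.30 in 4T1 and 5.70 in 4TO7.

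Other high regions carried no label. The region chr11:95894058-95894108 held 1.12% of the genome-aligned reads in 4T1 EVs, 0.837% in 4TO7 EVs, 0.0130% in 4T1 cells and 0.0171% in cells of 4TO7, all on the forward strand, with log2 ratios of 6.42 and 5.61. A set of 4 regions on chromosome 11 between chr11:87256804-87256883 and chr11:87284935-87285014 had near-equal totals, 1.29% in 4T1 EVs and 0.899% in 4TO7 EVs against 0.00968% in 4T1 cells for the first; this set was named after its values were seen. The region chr1:173033187-173033241 took up 6.87% of 4TO7 EV reads and 0.302% of 4T1 cell reads. It was listed neither in 4T1 EVs nor in 4TO7 cells, so that it gave no ratio within a line. The region chr12:70462213-70462313 was listed only in the 4TO7 line, with 0.358% in EVs and 0.0130% in cells, a log2 ratio of 4.78.

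**Figure D2:**
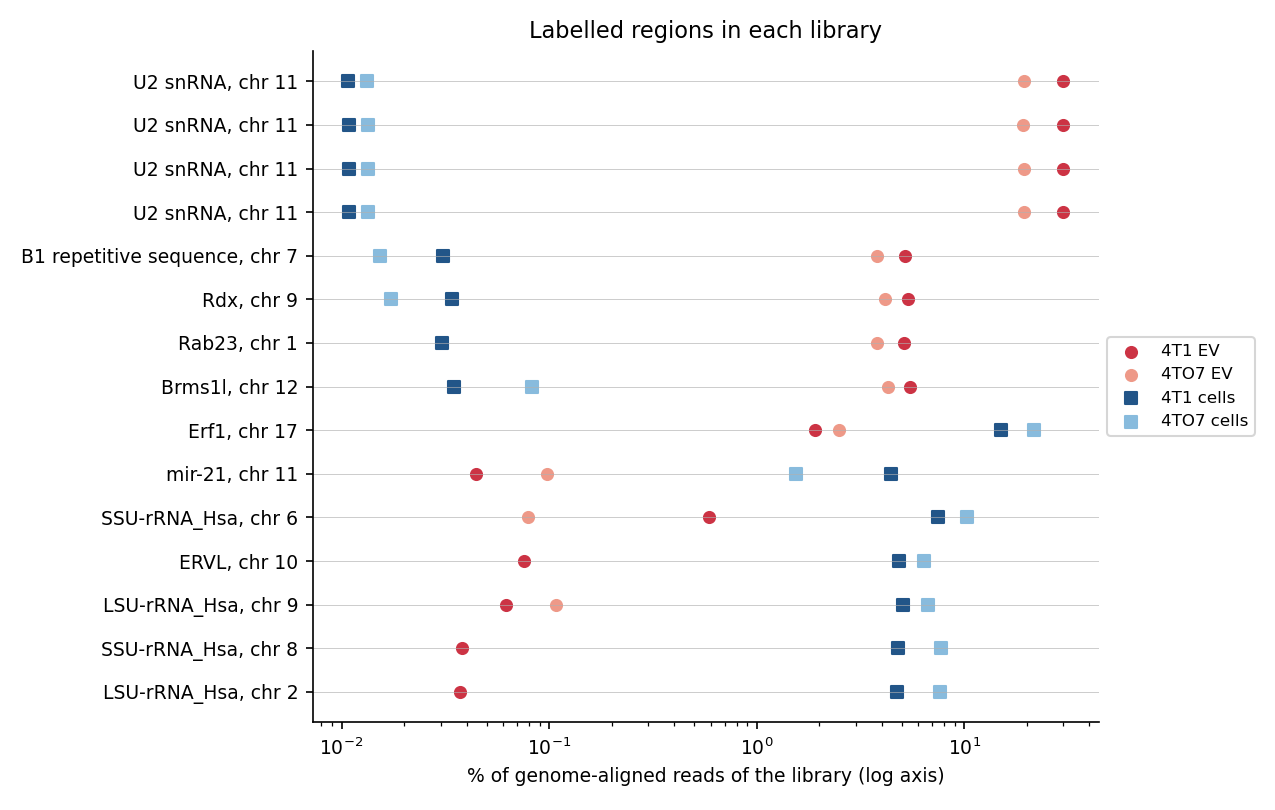
Level of the 15 labelled regions in each library as percent of genome-aligned reads (log axis), with circles for EVs and squares for cells; regions are ordered by their mean log2 EV/cell ratio, highest at the top. The U2 snRNA, B1, Rdx, Rab23 and Brms1l regions had higher levels in EVs, and the Erf1, mir-21, ERVL, LSU-rRNA_Hsa and SSU-rRNA_Hsa regions had higher levels in cells.

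At the other end stood regions labelled as ribosomal RNA. Their levels were measured after depletion of ribosomal RNA, and how well depletion worked in each sample was not tested. The large-subunit region on chromosome 2 (chr2:20821514-20821855) held 0.0374% in 4T1 EVs, 4.74% in 4T1 cells and 7.67% in cells of 4TO7, and was not listed in 4TO7 EVs; in 4T1 it was 127-fold lower (95% interval 122 to 131) in EVs. The small-subunit region on chromosome 8 (chr8:15519800-15520144) had totals within 5% of it in every library, although the authors labelled the first LSU-rRNA_Hsa and the second SSU-rRNA_Hsa, so the labels of near-equal regions disagreed. The large-subunit region on chromosome 9 (chr9:123370916-123371318) held 0.0617% of the genome-aligned reads in 4T1 EVs, 0.107% in 4TO7 EVs, 5.08% in 4T1 cells and 6.70% in cells of 4TO7, and was 82.4-fold lower (95% interval 80.0 to 84.8) in 4T1 EVs and 62.3-fold lower (95% interval 60.7 to 64.0) in 4TO7 EVs. The small-subunit region on chromosome 6 (chr6:3151275-3151576) held 0.592% of the genome-aligned reads in 4T1 EVs, 0.0789% in 4TO7 EVs, 7.46% in 4T1 cells and 10.3% in cells of 4TO7, a log2 ratio of -3.66 in 4T1 and -7.02 in 4TO7. All 4 regions that the authors labelled as ribosomal RNA were thus lower in EVs in each line where they were listed in both. Those on chromosomes 2 and 8 were compared in 4T1 only, may hold the same reads and were not taken as separate observations. Whether regions without such a label also hold ribosomal RNA was not tested.

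The largest region of all was chr17:39984131-39985206, 1075 nt wide and labelled Erf1 by the authors. It held 1.91% of the genome-aligned reads in 4T1 EVs, 2.50% in 4TO7 EVs, 15.0% in 4T1 cells and 21.6% in cells of 4TO7, and was 7.85-fold lower (95% interval 7.81 to 7.90) in 4T1 EVs and 8.64-fold lower (95% interval 8.59 to 8.69) in 4TO7 EVs. In RefSeq the name Erf1 is an alias of genes on other chromosomes, Zfp36l1 on chromosome 12 among them, so the label did not match a gene of chromosome 17 by that name. Some of its EV clusters, chosen after their values were seen, had totals close to clusters of the small-subunit region on chromosome 6. In 4T1 and 4TO7 EVs, chr17:39984276-39984301 held 9572 and 4503 alignments, and chr6:3151420-3151445 held 8659 and 4080. The cluster chr17:39984601-39984926, with 83570 in 4T1 EVs, had none close. Whether the close clusters hold the same reads, and whether this region holds ribosomal RNA, was not tested. The ERVL-labelled region (chr10:82418131-82418202), named for a class of endogenous retrovirus, held 0.0754% in 4T1 EVs, 4.83% in 4T1 cells and 6.41% in cells of 4TO7, a log2 ratio of -6.00 in 4T1.

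Unlabelled regions with similarly low ratios were mostly wide in cells and narrow in EVs. The region chr15:47371541-47371691 held 0.0387% in 4T1 EVs, 4.24% in 4T1 cells and 7.38% in cells of 4TO7; its log2 ratio was -6.78, and its cell clusters covered 150 nt against 25 nt in EVs. The regions chr6:44742975-44743075, chr13:107911845-107911964 and chr12:100883519-100883642 had log2 ratios of -6.68, -6.45 and -6.24 in 4T1, and none was listed in 4TO7 EVs. In 4T1 EVs they held 2952, 3065 and 3227 alignments, beside 2951 at chr15:47371541-47371691. The regions labelled as ribosomal RNA on chromosomes 2 and 8 held 2851 and 2900. Whether these regions hold the same EV reads was not tested, and they were not taken as separate observations. The lowest ratio in both lines belonged to chr19:40194259-40194409, which held 0.0210% of the genome-aligned reads in 4T1 EVs, 0.0351% in 4TO7 EVs, 3.85% in 4T1 cells and 5.22% in cells of 4TO7. It was 183-fold lower (95% interval 174 to 192) in 4T1 EVs and 149-fold lower (95% interval 142 to 156) in 4TO7 EVs. In 4TO7 the region chr1:56838916-56839075 had a log2 ratio of -6.89, with 0.0492, 0.0360, 2.38 and 4.27% in 4T1 EVs, 4TO7 EVs, cells of 4T1 and cells of 4TO7, and chr15:86025320-86025545 stood at -6.09.

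The region labelled mir-21 (chr11:86397618-86397668) could be read in the miRNA tables as well. The cluster held 0.0443% of the genome-aligned reads in 4T1 EVs, 0.0971% in 4TO7 EVs, 4.45% in 4T1 cells and 1.55% in cells of 4TO7, all on the reverse strand, which is the strand RefSeq gives for mir-21. It was 100.3-fold lower (95% interval 97.0 to 104) in 4T1 EVs and 15.9-fold lower (95% interval 15.5 to 16.4) in 4TO7 EVs. Sense reads of 18 nt or more that matched miR-21a-5p numbered 2235 in 4T1 EVs, 794 in 4TO7 EVs, 69634 in 4T1 cells and 21024 in cells of 4TO7. Per genome-aligned read these were 17.6-fold lower in 4T1 EVs than in cells (95% interval 16.9 to 18.4) and 12.1-fold lower in 4TO7 (95% interval 11.3 to 13.1). The direction was the same in both readouts and both lines, but the size in 4T1 was not.

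The cluster total was 1.51 times the miR-21a-5p count in 4T1 EVs, 6.33 times in 4TO7 EVs, 8.63 times in 4T1 cells and 8.29 times in 4TO7 cells. The 4T1 EV library stood apart from the other 3 in this quotient. Why the cluster exceeded the mature count was not tested. The other arm, miR-21a-3p, had 6, 3, 249 and 49 reads in the 4T1 EV, 4TO7 EV, 4T1 cell and 4TO7 cell libraries, and was 23.4-fold lower in 4T1 EVs (95% interval 10.6 to 64.5) and 7.49-fold lower in 4TO7 EVs (95% interval 2.42 to 37.6). With 6 and 3 EV reads these folds are known only within those wide bounds.

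The strand of the alignments, which the rule did not use, separated EVs from cells in many regions. EV alignments lay mainly on the strand opposite to that of the cells in 43 of 240 regions in 4T1 (17.9%) and in 36 of 115 in 4TO7 (31.3%). Between the cell libraries of the lines, the main strand was opposite in 2 of the 193 regions listed in both, and between the EV libraries in 5 of the 144 listed in both. Over all regions, including those outside the rule, the main strand differed in 14 of 1042 regions between the cell libraries (1.34%) and in 8 of 291 between the EV libraries (2.75%). The cells' strand was clear in nearly every region: over 99% of cell alignments lay on 1 strand in 237 of 240 regions in 4T1 and 111 of 115 in 4TO7. Among the regions with opposite strands this held for all 43 in 4T1 and for 34 of 36 in 4TO7, the exceptions being the Brms1l-labelled region and chr3:96303471-96303523.

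The switch was mostly shared by the lines. Of the 107 regions listed in all 4 libraries, 28 had opposite main strands in EVs and cells in both lines, 6 in 4TO7 alone (Brms1l among them), none in 4T1 alone and 73 in neither. In either line 51 regions had opposite strands, and 20 of them were forward in cells. They lay on 17 chromosomes and belonged to 50 groups of near-equal totals. Those groups required near-equal totals in cells as well as in EVs, so regions that share EV reads alone were counted apart. Only 3 of the 51 regions carried a label: Erf1, the large-subunit region on chromosome 9, and Brms1l in 4TO7.

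Regions with opposite strands had mostly lower levels in EVs. In 4T1, 29 regions had under 5% of EV alignments on the main strand of the cells; their median log2 ratio was -2.33, with 2 higher and 19 lower. The 30 regions with 5% to 95% had a median of -2.27, with 1 higher and 24 lower, and the 181 regions with over 95% had a median of 0.14, with 71 higher and 55 lower. In 4TO7 the medians were -2.09 for 28 regions under 5%, -2.47 for 17 regions between, and 1.19 for 70 regions over 95%, where 38 were higher and 20 lower. Regions with over 95% were also lower in cells, with a median of 0.0418% of aligned reads in 4T1 cells against 0.295% for those under 5%, and narrower, with a median width of 29 nt against 65 nt. The part of level and width in this difference was not tested.

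**Figure D3:**
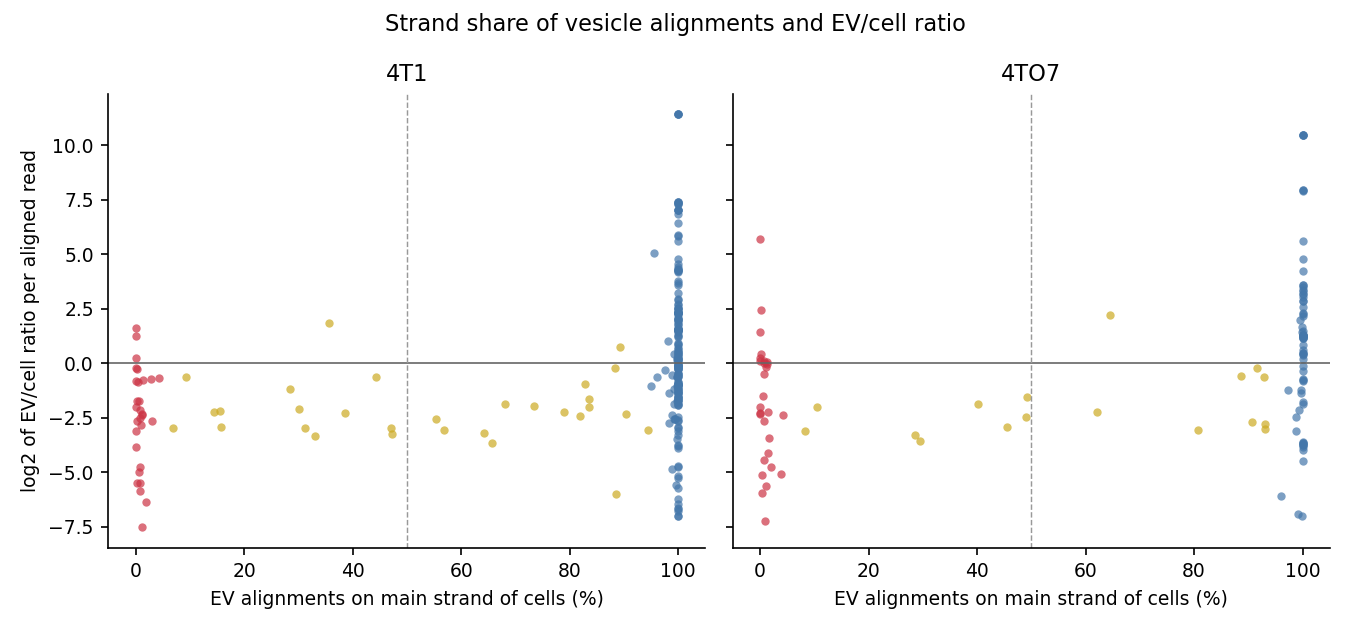
Log2 EV/cell ratio (vertical) against the percentage of EV alignments that lay on the main strand of the cells (horizontal), 1 point per region, 4T1 left and 4TO7 right; colours as for strand share over 95% (blue), 5% to 95% (yellow) and under 5% (red). Points gather near 0% and 100%, and the highest ratios in both lines lie at 100%.

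Counts on each strand show how complete the switch was. At chr19:40194259-40194409, the region with the lowest ratio, over 99% of 4T1 cell alignments were forward; 1583 of the 4T1 EV alignments and 1801 of the 4TO7 EV alignments lay on the other strand, and 20 and 16 on the strand of the cells. On the cells' strand the EV level was therefore 14671-fold lower than in cells in 4T1 (95% interval 9499 to 24018), while on the other strand it was 350.4 times the cells' level (95% interval 177 to 813), from 8 alignments in cells. In 4TO7 the same values were 16883-fold lower and 785 times. These ratios use alignments inside listed clusters, which covered 25 nt in EVs and 125 to 150 nt in cells. Over all regions with opposite strands, the median log2 ratio on the cells' strand was -8.72 in 4T1 (43 regions) and -9.26 in 4TO7 (36 regions). These medians place the 2 regions in 4T1 and the 4 in 4TO7 that had no EV alignment on that strand at a floor of 3 EV alignments, and without those regions they were -8.72 over 41 regions and -7.98 over 32.

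The same was seen at regions forward in cells and at regions reverse in cells. At the large-subunit region on chromosome 9, 1.87% of 4T1 EV and 0.360% of 4TO7 EV alignments were forward, against over 99% in both cell libraries. At chr11:95942469-95942569, with 0.0554, 0.0953, 2.51 and 3.33% in 4T1 EVs, 4TO7 EVs, 4T1 cells and 4TO7 cells, the EV alignments were 0.758% and 0.426% forward and those of the cells over 99%. The region chr9:80247285-80247389 had 0.877% and 1.04% forward in EVs. In the other orientation, chr13:54285363-54285446 and chrX:21257690-21257798 were 99.7% and 99.3% forward in 4T1 EVs and 96.2% and 97.9% in 4TO7 EVs, whereas the cells' alignments were reverse. EV counts on the strand opposite to the cells were close in some of these regions. In 4T1 and 4TO7 EVs they were 1583 and 1801 at chr19:40194259-40194409, and 1582 and 1813 at chr9:80247285-80247389. The large-subunit region on chromosome 9 had 4618 and 5537, chr13:54285363-54285446 had 4602 and 6042, and chrX:21257690-21257798 had 4660 and 5666. Such regions may hold the same EV reads and were not taken as separate observations.

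Some regions with opposite strands were not called lower in EVs. Of the 29 regions in 4T1 with under 5% of EV alignments on the cells' strand, 2 were higher, 19 lower and 8 neither. Of the 28 such regions in 4TO7, 3 were higher, 16 lower and 9 neither. The region chr4:78419612-78419668 held 0.191, 0.288, 0.0611 and 0.0529% in 4T1 EVs, 4TO7 EVs, 4T1 cells and 4TO7 cells, with log2 ratios of 1.65 and 2.44, and 0.0274% and 0.101% of its EV alignments lay on the cells' strand. The region chr9:118584069-118584198 had log2 ratios of -0.62 and 0.08, with 9.31% and 1.34% on the cells' strand. The region chr3:96303471-96303523, listed in 4TO7 EVs and both cell libraries, was 2.75-fold higher (95% interval 2.70 to 2.80) in 4TO7 EVs. Its EV alignments were all reverse, but the cells of the line had no clear strand there, with 14412 forward and 10136 reverse alignments in 4TO7 cells, and those of 4T1 cells were reverse. The regions named in this paragraph were chosen after their values were seen.

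The block around the Erf1-labelled region shows the strands side by side. Within 5 kb of each other lay 4 of the 261 regions on chromosome 17, from chr17:39979939 to chr17:39985206. At its upstream end, 25 to 50 nt clusters were forward in both EV libraries and in 4T1 cells, and 4TO7 cells had no listed cluster: the cluster chr17:39979939-39979989 held 0.736% in 4T1 EVs and 1.04% in 4TO7 EVs, and the overlapping cell cluster 0.0311% in 4T1 cells. The clusters of this block were chosen after their values were seen. At its other end the cell clusters remained forward. There the EV cluster chr17:39984971-39985071 of 4T1 was 0.463% forward with 0.425% of the reads, and chr17:39984972-39985072 of 4TO7 was 0.700% forward with 0.685%. Between them, the 25-nt EV cluster chr17:39984276-39984301 was over 99% forward in both lines. The clusters chr17:39984601-39984926 in 4T1 and chr17:39984601-39984776 in 4TO7 were 25.1% and 8.39% forward. Mainly forward and mainly reverse EV clusters thus stood within the same region in both lines. Some EV clusters of this block had counts close to clusters on chromosome 6. In 4T1 EVs, chr17:39983645-39983720 held 5039 alignments and chr6:3150789-3150864 held 5028, each 48.8% forward. Such clusters may hold the same reads and were not taken as separate observations.

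**Figure D4:**
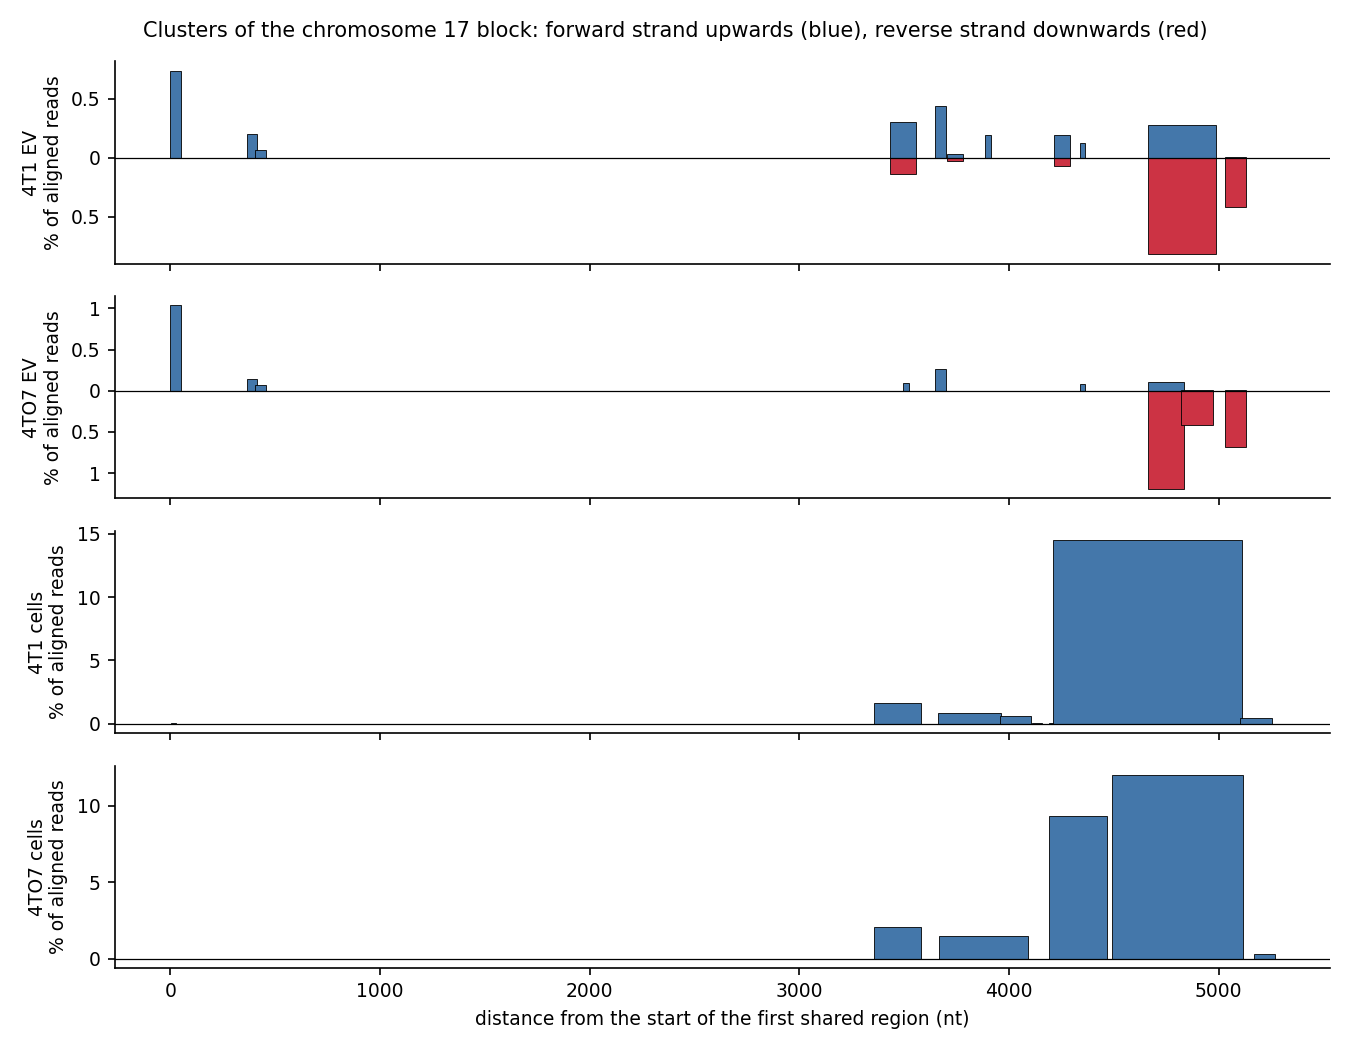
Clusters of the chromosome 17 block in the 4 libraries, drawn to scale along the distance in nt from the start of its first region; bar height is the percent of genome-aligned reads of a cluster, with forward alignments upwards in blue and reverse alignments downwards in red, and each library has its own vertical scale. Cell bars point upwards throughout, and the EV bars that start at 4662 nt and beyond point mainly downwards.

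The EV libraries of the lines were not always alike in strand. At the small-subunit region on chromosome 6, 65.7% of 4T1 EV alignments but over 99% of 4TO7 EV alignments were forward, as were those of both cell libraries. The 4T1 EV clusters covered 175 nt there and the 4TO7 EV cluster 25 nt. At chr17:39983296-39983521 the forward share was 68.0% in 4T1 EVs and over 99% in 4TO7 EVs, over 125 nt and 25 nt. In both regions the reverse alignments of 4T1 EVs lay in clusters that the 4TO7 EV table did not list at that width.

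As merged, the 261 regions were wider than the other regions. Their median width was 50 nt and 46 of them (17.6%) were over 100 nt, against none of the 545 regions listed in EVs alone and 15 of the 1648 listed in cells alone (0.910%). The smallest width, 25 nt, was found in 23 of them (8.81%), in 410 EV-only regions (75.2%) and in 1125 cell-only regions (68.3%). Merging clusters of several libraries widens a region, and all 261 regions were merged in this way. The difference in width therefore follows in part from the rule. Among the regions listed in EVs and cells of a line, the median covered width was 25 nt in EVs and in cells, in both lines. Covered widths were next compared between EVs and cells, which does not set the 261 regions against the others. In 4T1 the EV clusters covered fewer nt than the cell clusters in 75 regions, as many in 144 and more in 21, and the median log2 EV/cell ratios of these classes were -2.63, 0.23 and 4.56. In 4TO7 the numbers were 36, 59 and 20, with medians of -2.67, 0.46 and 3.27. Per covered nt the medians of the narrower classes were -1.63 in 4T1 and -1.57 in 4TO7, and those of the wider classes 3.56 and 2.27, so the order of the classes was the same. The sign of the ratio changed per covered nt in 11 of 240 regions in 4T1 and in 4 of 115 in 4TO7.

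EV/cell ratios of the lines followed each other. Over the 107 regions listed in all 4 libraries, Pearson's r between the log2 ratios of 4T1 and 4TO7 was 0.92 and Spearman's rho 0.90. With 1 region per group of near-equal totals (94 regions) they were 0.90 and 0.89. These are correlations across regions, which share libraries, depth and in part reads, and they are given as a description. Of these 107 regions, 23 were higher in EVs in 4T1 and 38 in 4TO7, of which 21 were higher in both; 50 were lower in 4T1 and 46 in 4TO7, of which 41 were lower in both. The sign was the same in 86 of 107 regions, and 1 region was called in opposite directions.

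**Figure D5:**
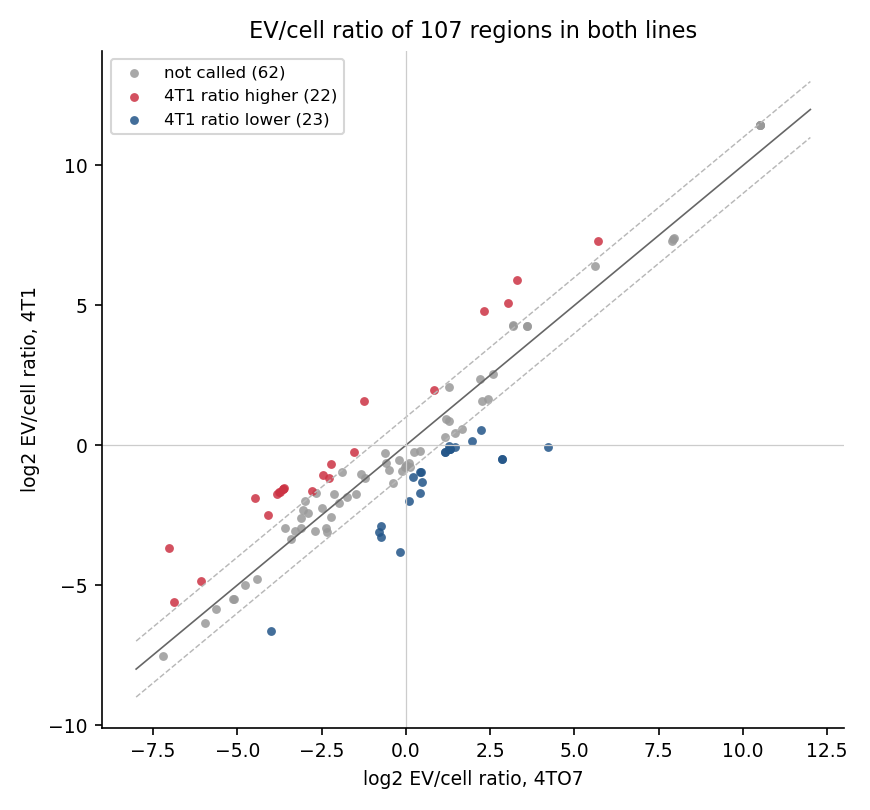
Log2 EV/cell ratio in 4T1 (vertical) against 4TO7 (horizontal) for the 107 regions listed in all 4 libraries, 1 point per region; the solid line marks equal ratios and the dashed lines a 2-fold difference. Colours mark the 22 regions with a higher ratio in 4T1 (red), the 23 with a lower one (blue) and the 62 called neither way (grey).

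Line differences in the ratio with an interval wholly beyond 2-fold were found in part of the regions: the ratio was higher in 4T1 in 22 (20.6%) and lower in 4T1 in 23 (21.5%), and the median difference was -0.22 on the log2 scale.
The largest difference towards 4T1 belonged to the small-subunit region on chromosome 6, 3.37 (95% interval 3.32 to 3.41) on the log2 scale. Per covered nt it was 0.43, within 2-fold. The region chr17:39983296-39983521 of the chromosome 17 block had a difference of 2.60 (95% interval 2.56 to 2.65), which was 0.28 per covered nt. For both, the 4T1 EV clusters were wider than those of 4TO7 EVs. Whether the regions of chromosomes 6 and 17 share reads was not tested.

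A set of narrow unlabelled regions had a near-equal level in the cells of both lines and a higher one in 4T1 EVs than in 4TO7 EVs. The region chr3:117489576-117489606 held 0.816% of the genome-aligned reads in 4T1 EVs, 0.190% in 4TO7 EVs, 2.36% in 4T1 cells and 2.33% in cells of 4TO7; the line difference was 2.08 (95% interval 2.05 to 2.11). The regions chr10:42303963-42303992 and chr15:84506253-84506279, with near-equal totals, held 0.644% and 0.645% in 4T1 EVs, 0.151% and 0.152% in 4TO7 EVs, and 2.03 to 2.04% in both cell libraries. Their differences were 2.09 and 2.08. The pair chr11:117026235-117026263 and chr9:30231235-30231261 had differences of 2.08 each. All of these were 26 to 30 nt wide and lay over 99% on 1 strand in every library. In each of them both EV libraries were below both cell libraries, and 4TO7 EVs lowest. Their totals lay between 49103 and 62224 in 4T1 EVs and between 275119 and 319251 in 4T1 cells. Whether they hold in part the same reads was not tested, and they were not taken as separate observations.

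Other regions with a higher ratio in 4T1 were above the cells in both lines. The region chr8:59118940-59118968 held 0.615, 0.128, 0.0103 and 0.0130% in 4T1 EVs, 4TO7 EVs, 4T1 cells and 4TO7 cells, a difference of 2.60 (95% interval 2.49 to 2.71). The region chr6:94776851-94776901 held 1.01, 0.165, 0.0362 and 0.0327% in the same order, a difference of 2.46 (95% interval 2.39 to 2.53). The Brms1l-labelled region had a difference of 1.59, which turned to -0.62 when only the reverse strand was counted, since most alignments of 4TO7 cells there were forward. The region chr7:134351001-134351027 was the one called in opposite directions: it held 0.111, 0.0297, 0.0372 and 0.0699%, and was 2.97-fold higher (95% interval 2.87 to 3.08) in 4T1 EVs and 2.35-fold lower (95% interval 2.23 to 2.49) in 4TO7 EVs.

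Towards 4TO7, the largest difference was at chr13:18307098-18307152, which held 0.0767% of the genome-aligned reads in 4T1 EVs, 0.975% in 4TO7 EVs, 0.0798% in 4T1 cells and 0.0519% in cells of 4TO7. Its log2 ratio was -0.06 in 4T1 and 4.23 in 4TO7, a difference of -4.29 (95% interval -4.35 to -4.23), with over 99% of the alignments on the reverse strand and 50 nt covered in all 4 libraries. The EVs of 4TO7 stood above the other 3 libraries, which lay between 0.0519 and 0.0798%. The region chr8:87635768-87635871 held 0.0208, 0.429, 0.295 and 0.486% in 4T1 EVs, 4TO7 EVs, 4T1 cells and 4TO7 cells, a difference of -3.65 (95% interval -3.73 to -3.58); its EV alignments lay on the strand opposite to the cells in both lines, 99.9% and 98.9% forward. The near-equal regions chr1:134930535-134930612 and chr19:12080525-12080602 had differences of -3.35 and -3.35, with 0.0749% in 4T1 EVs against 0.341% in 4TO7 EVs for the first. Per covered nt their 4T1 log2 ratios were 1.09 and 1.09 in place of -0.50 and -0.50, since the 4T1 EV cluster covered 25 nt and the 4T1 cell cluster 75 nt.

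The mir-21 region was also among those lower in 4T1 by its cluster total, with a difference of -2.66 (95% interval -2.72 to -2.59). The miR-21a-5p count gave -0.53 (95% interval -0.65 to -0.42), within 2-fold, and the 4T1 EV library was the one whose cluster total stood apart from that count. Of the regions with a lower ratio in 4T1, chr15:68172815-68172865, chr17:17967154-17967182, chr1:23279111-23279136 and mir-21 were more than 2-fold higher in 4T1 cells than in 4TO7 cells, with log2 cell ratios of 1.75, 1.77, 1.75 and 1.52. Their log2 ratios between the EVs of the lines were -0.80, -0.53, -0.41 and -1.13. By these cluster totals 4T1 was above 4TO7 in cells and below it in EVs in the 4 regions. For mir-21 the miRNA table gave the other order in EVs, with miR-21a-5p at 0.0293% of aligned reads in 4T1 EVs and 0.0154% in 4TO7 EVs. The regions chr13:48633605-48633631 and chr4:136094121-136094181 also had lower ratios in 4T1, with differences of -2.11 and -2.09; in the second the EV alignments lay on the strand opposite to the cells in both lines.

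Between the lines, most of these regions had levels within 2-fold in cells and in EVs. Of 193 regions listed in both cell libraries, 30 were higher in 4T1 cells (15.5%) and 1 was lower (0.518%), with a median log2 ratio of 0.02. Over all 1042 regions listed in both cell libraries 12.4% were higher and 3.74% lower, with a median of 0.03. The region lower in 4T1 cells was Brms1l at -1.25. On the reverse strand alone, which held its EV and 4T1 cell alignments, the order turned, with 4687 alignments (0.0347%) in 4T1 cells and 2013 (0.0179%) in cells of 4TO7. The highest were chr8:86732624-86732649 at 2.70 and chr13:63402064-63402091 at 2.69, named after their values were seen. Between the EV libraries, 23 of 144 regions were higher in 4T1 (background 14.4% of 291) and 15 lower (background 8.93%), with a median of 0.05 against 0.04 over all 291. The log2 ratios ran from -5.54 at chr8:120848350-120848378 to 2.91 at the small-subunit region on chromosome 6, and the first of these was also named after its value was seen.

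Regions were not independent of each other. When regions whose totals were within 5% in every library were grouped, the 261 regions made 228 groups. Of these, 28 groups held 2 or more regions, 61 regions in all: 25 groups of 2, 1 of 3 and 2 of 4. Groups could span chromosomes, as for the large- and small-subunit regions on chromosomes 2 and 8. In addition, 64 regions lay within 5 kb of another, in 29 blocks of up to 4 regions. The regions lay on 20 chromosomes, most often on chromosomes 1 (29), 9 (28) and 11 (23), and none was mitochondrial. Labels were given for 15 of the 261 regions, and for 22 of all 2454; the other 246 regions were not named by the authors, and none is named here.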

How the data were processed

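Small RNA of 4T1 and 4TO7 mouse breast cancer cells and of the EVs of each line was sequenced, 1 library per group, with separate index primers in 1 lane per the labels. Bowtie, bedtools and cutadapt, and the build mm9, are named in the submitters' processing notes, and tool versions are not given in the sources used here. The alignment logs deposited by the authors show Bowtie runs with 1 mismatch allowed, at most 6 places per read on the genome and at most 10 matches on mature miRNAs. The cluster tables that the authors deposited hold raw counts of alignments per cluster on each strand, in steps of 25 nt, with labels in the 4T1 tables only. How clusters were called and whether coordinates count from 0 or 1 are not stated; they are given as deposited. The deposited miRNA tables hold counts per miRNA, strand, position and length.

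From these counts, overlapping clusters of the 4 libraries were merged, totals were summed per region and library, and divided by the genome-aligned reads of the alignment log. Ratios have exact (Clopper-Pearson) binomial 95% intervals conditional on the summed count, and line differences an interval from summed Poisson variances. A ratio is called where the interval lies wholly beyond 2-fold. Reads carry no molecular identifiers, so the intervals cover counting error only, and no p-value is given. The calculation was tested on simulated counts. Regions whose totals were within 5% of each other in every library were treated as groups that may share reads.

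Regions named in the text were, in each line, the 10 highest and 10 lowest EV/cell ratios, the 10 largest in each library, the 10 largest line differences in each direction, any region with a miRNA label and the largest region of each label, 49 regions in all. A few further regions and clusters were named after their values were seen, as stated beside them. The regions and this rule were chosen with earlier results of these data known. Alternatives were other ways of merging, a minimum total of 5000, other denominators, totals per covered nt, 4-fold calls and counting 1 strand only; counting 1 region per group of near-equal totals, and repeating the count of opposite strands under the merging and total alternatives, were chosen after seeing the data. Python 3.11.15, numpy 2.4.6, pandas 2.3.3, scipy 1.17.1 and matplotlib 3.10.9 were used. The reference given was GRCm38, so names and sequences were taken from it but no coordinates.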

Additional observations from a re-analysis of the deposited data

Results flagged for a closer look

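The region chr7:134351001-134351027 had a log2 EV/cell ratio of 1.57 in 4T1 and -1.23 in 4TO7. It stands out because it moved in opposite directions in the lines, with 1 library on each side of each ratio. The difference between the lines was not tested against the spread between cultures. With the sum of listed totals as denominator the 4T1 value was 0.81, and with the ratios scaled to a median of 1 the 4TO7 value was -1.06, and in neither case did the interval still lie wholly beyond 2-fold.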

How the results depend on the processing

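Of 120 counts recomputed under the alternatives, 91 were within 1.5 times the reported count. With clusters of 5000 or more alone, 106 regions met the rule; 13 were higher and 43 lower in EVs in 4T1, 10 and 29 in 4TO7, 3 and 0 between cells, 8 and 9 between EVs, 9 and 7 in the line difference, and 21 (4T1) and 23 (4TO7) had opposite strands. With 4-fold calls, 65 were lower in 4T1, 27 higher in 4TO7, 3 higher and 0 lower between cells, 10 and 8 between EVs, and 11 and 10 in the line difference. Regions lower in 4T1 cells numbered 4 when EV clusters alone were merged and 6 per covered nt. With listed totals as denominator, 14 regions were higher and 46 lower between EVs, and 12 and 40 in the line difference. Scaled to a median ratio of 1, the line difference had 35 higher and 14 lower.

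The balance of directions moved with the minimum total and with the denominator. Among called regions, the share higher in 4T1 EVs than in cells was 43.0%, 23.2% with clusters of 5000 or more, and 31.4% with listed totals, which shifted the median log2 ratio by -0.76. In 4TO7 it was 46.2%, 25.6% with clusters of 5000 or more, where the median log2 ratio was -2.14, and 43.7% with listed totals. Between EVs it was 60.5% and 23.3%, and for the line difference 48.9%, 23.1% with listed totals and 71.4% scaled to the median. Scaling to a median ratio of 1 shifted the medians by 0.59 in 4T1 and 0.18 in 4TO7.

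For the named regions, 1158 values were recomputed. Of these, 1110 kept their call, 27 were no longer called, 14 became called and 7 reversed. The 1110 include any value that changed sign but was called in neither setting. The line difference of chr15:86025320-86025545 was -2.87 with EV clusters alone merged, and that of chr1:56838916-56839075 was -0.12 with clusters up to 100 nt apart merged. Per covered nt the 4T1 ratios of chr1:134930535-134930612 and chr19:12080525-12080602 were 1.09 and 1.09. With 1 strand only, the 4TO7 ratio of chr4:136094121-136094181 was -6.90, and the line differences of chr12:56937405-56937438 and chr9:123370916-123371318 were -0.62 and 1.98. Apart from the construction of each alternative, the cause was not tested. No paired analysis was possible because each group had 1 library. The lowest listed total limits what could be seen: a region under 1300 alignments had no value.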
